A study of Mus musculus with 1 sample.

Results

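Genes that pattern the embryonic cortex and set up its areas were examined in sc-RNA Seq of the newborn mouse cortex. The members were 9 genes chosen by symbol, Pax6, Emx1, Emx2, Nr2f1, Nr2f2, Lmo3, Lmo4, Zbtb20 and Bhlhe22, out of 51912 genes listed in the table of unique molecular identifier (UMI) counts. The study compared SERPINA3 knock-in with WT cortex, and the library analysed here was WT: Wildtype C57BL/6 mice at P0, the day of birth, tissue given as cerebral cortex and, in the sample title, as telencephalic. Cells were captured in droplets with 10x Genomics chemistry, in which a UMI marks each captured transcript. The series text speaks of triplicates, but the table names 1 library, and how many pups it came from is not given in the sources used here.

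The library held 11062 barcodes (1 barcode stands for about 1 cell) and 90346034 UMIs, with a median of 7196.5 UMIs, a lowest value of 500 and a highest of 92061. There was 1 library, so no value below has a replicate error and no test between groups was made. Intervals in brackets are 95% intervals (exact Poisson for a level, exact binomial for a share, exact conditional binomial for a ratio), and they cover counting error only.

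During development, graded transcription factors in dividing cells of the ventricular zone divide the cortical sheet into areas. Pax6 and Emx2 form opposing gradients along the sheet, Nr2f1 (COUP-TFI) is strongest towards its caudal and lateral side, and Emx1 marks the dorsal lineage that gives rise to excitatory neurons. Other factors act after neurons are born: Lmo4, Lmo3 and Bhlhe22 (BHLHB5) are expressed in areas and layers of postmitotic neurons. Nr2f2 (COUP-TFII) is known from interneurons of the caudal ganglionic eminence, and Zbtb20, a zinc finger repressor, from progenitors, astrocytes and the hippocampus. A dissociated cortex keeps no position, so levels here refer to cell classes and not to areas.

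Classes were built by gating: a barcode entered a class when it held a minimum number of UMIs of that class's markers, none of which was a member, and it was left out when it also met an excluding gate. In this way 7532 barcodes (68.1%) received a class, at a median of 9009.5 UMIs, while 3526 (31.9%) at a median of 1462.5 UMIs did not. The excitatory gate (Neurod2, Neurod6, Slc17a7) held 6284 barcodes. Within it, the upper-layer gate (Cux1, Cux2, Unc5d, Mdga1) held 2712, of which 397 with at least 2 Rorb UMIs were taken as Rorb-positive and 1937 with 0 as Rorb-negative. This split was made on full counts, so it also separates by depth, with medians of 13065 UMIs in Rorb-positive and 7958 in Rorb-negative barcodes. The part of depth in differences between them was not tested. Layer V held 564 barcodes, layer VI 920 and layer VIb 38, together the deep-layer set of 1522, and 2050 excitatory barcodes met no layer gate. Outside it, 50 dividing progenitors, 282 radial glia or astrocytes, 251 oligodendrocyte precursors, 204 Eomes-positive newborn excitatory and 383 inhibitory barcodes were gated.

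Markers whose UMIs no gate counted were checked in each class. The gate minimums were set partly on these check markers, so they are no independent check of the gates. Sox9 reached 713 CPM (a gene's UMIs scaled to the same total in each class, mitochondrial genes left out) in the radial glia or astrocyte gate against 5.2 CPM in the excitatory gate, Sox10 reached 159.7 CPM in the oligodendrocyte precursor gate, and Pou3f2 was at 807 CPM in the upper-layer gate against 155.6 CPM in layer VI. The oligodendrocyte precursor gate also carried markers of dividing cells at a sum of 1959 CPM, against 76.0 CPM in radial glia or astrocytes, and markers of radial glia at 7455 CPM, against 2896 CPM of its own list. Their part in its member levels was not tested. The other upper-layer check markers did not mark the whole gate: Rspo1 was near 0 in every excitatory gate, and Inhba was at 357 CPM in Rorb-positive but 70.1 CPM in Rorb-negative upper-layer barcodes, below layer V (76.3 CPM) and barcodes of no layer gate (135.9 CPM). Sox5, a check marker of both deep layers, was higher in layer VI (849 CPM) than in layer V (385 CPM). The other layer V check markers, Pcp4 and Etv1, were higher in layer V (115 and 109 CPM) than in layer VI (38.3 and 63.2 CPM). Among inhibitory barcodes, the gate of Lhx6, Sst, Nxph1 and Maf (135 barcodes) carried Sox6 at 157 CPM against 37.0 CPM in the gate of Adarb2, Prox1, Sp8 and Htr3a (95 barcodes). However, Npas1, a check marker of the latter, was lower there (138 CPM) than in the former (215 CPM), and Vip was at 2.47 CPM against 1.19 CPM. Another check marker of the latter, Cck, was higher there (59.2 CPM) than in the former (38.0 CPM). These gates are therefore called Lhx6/Sst-gated and Adarb2/Prox1-gated, with no subtype name. Olfactory bulb markers (Tshz1, Meis2, Etv1, Pbx3, Th) summed to 1540 CPM in the Adarb2/Prox1 gate and 152 CPM in the Lhx6/Sst gate.

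Each member was found in the library. Nr2f1 was detected in 73.1% of barcodes, Lmo4 in 57.6%, Zbtb20 in 52.0%, Bhlhe22 in 48.4%, Emx1 in 32.8% and Lmo3 in 30.7%. Pax6 (11.6%), Emx2 (7.51%) and Nr2f2 (4.50%) were found in fewer. The excitatory gate held 88.5% of all Bhlhe22 UMIs, 86.4% of Emx1, 85.9% of Lmo4, 84.5% of Lmo3 and 76.7% of Nr2f1, but 42.3% of Zbtb20, 37.8% of Emx2, 18.1% of Pax6 and 13.1% of Nr2f2. Barcodes without a class held 50.7% of the 1553 Nr2f2 UMIs, the highest share among members, so the Nr2f2 values below describe about as many UMIs as they leave out.

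**Figure D1:**
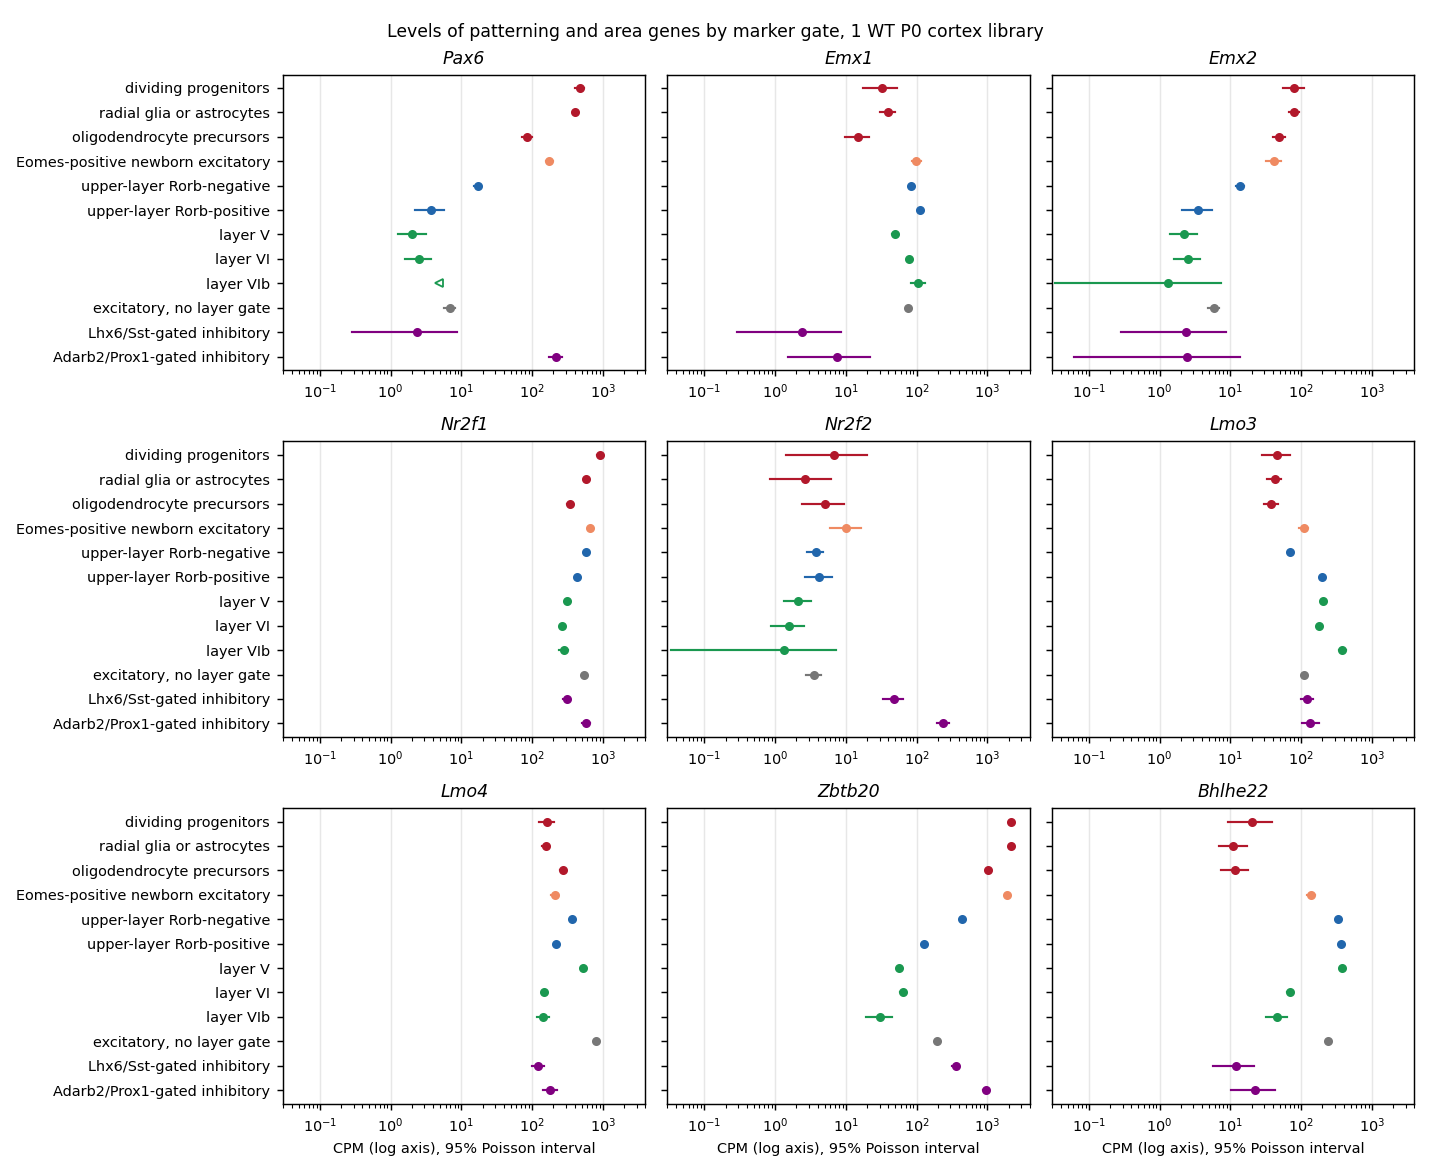
Level of each member in 12 gates of the WT P0 library; the horizontal log axis gives CPM, points are levels, lines are 95% Poisson intervals, and an open arrow marks the upper limit where no UMI was found. Among the gates drawn, Pax6, Emx2 and Zbtb20 were highest in the red progenitor and glial gates, Bhlhe22 and Emx1 in the orange, blue and green excitatory gates, and Nr2f2 in the purple inhibitory gates.

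The first comparison asked which members belong to progenitors and glia (583 barcodes: dividing progenitors, radial glia or astrocytes, and oligodendrocyte precursors) and which to excitatory neurons. Pax6, Emx2 and Zbtb20 were at least 2-fold higher in progenitors and glia, whereas Emx1, Lmo3, Lmo4 and Bhlhe22 were at least 2-fold lower. Nr2f1 differed little and Nr2f2 had too few UMIs. Of 11862 genes with enough UMIs for this comparison, 22.9% were at least 2-fold higher and 15.6% at least 2-fold lower, against 3 and 4 of the 8 members that passed the same filter on low values. The median ratio was 0.770 over these members and 1.09 over all genes compared. Here and below, a gene could pass the filter through the class where it was high, so these counts and medians describe the genes that passed and are no support for a difference.

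Pax6, a paired-box factor of radial glia, was at 470 CPM (408 to 539) in dividing progenitors and 407 CPM (378 to 436) in radial glia or astrocytes, and these intervals overlapped. It was lower in Eomes-positive newborn excitatory barcodes (175 CPM, 156 to 196) and oligodendrocyte precursors (84.4 CPM, 72.1 to 98.3). In excitatory neurons it was at 8.0 CPM (7.33 to 8.71). The ratio of progenitors and glia to excitatory neurons was 33.2 (29.9 to 36.9). It was 21.9 when each barcode was given equal weight. With each barcode thinned to 2000 UMIs, Pax6 was detected in 54.6% (48.2 to 60.9) of the radial glia or astrocyte gate, 30.7% of newborn excitatory and 1.88% (1.56 to 2.25) of excitatory barcodes. Before thinning, detection was 78.4%, 63.7% and 6.60%, with medians of 7057, 7013.5 and 9624.5 UMIs per barcode. In the Lhx6/Sst gate, which should lack Pax6, 2 UMIs were counted (2.38 CPM, 0.288 to 8.59). Layer V (2.04 CPM), layer VI (2.51 CPM), Rorb-positive upper-layer barcodes (3.67 CPM) and those of no layer gate (6.83 CPM) lay within that interval. These gates were not told from background. The excitatory gate as a whole (8.0 CPM) also lay within it, but includes Rorb-negative upper-layer barcodes at 17.1 CPM (15.1 to 19.2), above it. The ratio of 33.2 thus has a denominator that mixes gates at and above background. Layer VIb held 0 UMIs, where a count of 3 would be 3.96 CPM.

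Emx2, a homeobox factor of the dorsal progenitor zone, was at 79.9 CPM (55.7 to 111) in dividing progenitors, 79.2 CPM (67.0 to 93.0) in radial glia or astrocytes and 48.8 CPM (39.6 to 59.6) in oligodendrocyte precursors. It was at 6.71 CPM (6.10 to 7.36) in excitatory neurons, and the ratio was 9.75 (8.37 to 11.3), or 5.41 with every barcode thinned to 2000 UMIs. As for Pax6, 2 Emx2 UMIs were counted in the Lhx6/Sst gate (2.38 CPM, 0.288 to 8.59), and the excitatory level lay within that interval. That level mixes Rorb-negative upper-layer barcodes at 13.9 CPM (12.1 to 15.8), above the interval, with other gates not told from background. The highest level was that of 16 Cajal-Retzius-gated barcodes (Reln, Trp73, Lhx1, Lhx5), at 383 CPM (307 to 472), with an Emx2 UMI in 87.5% of them. Calb2 and Ndnf, check markers of that gate, were at 1492 and 1470 CPM there. Exons of Emx2 overlap those of the antisense gene Emx2os, listed on its own with 173 UMIs against 1180 for Emx2; whether strand was used in counting is not given in the sources used here.

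Emx1, its relative in the dorsal lineage, went the other way. Its level was 39.1 CPM (30.7 to 49.1) for radial glia or astrocytes, 99.5 CPM (85.0 to 116) in newborn excitatory barcodes and 78.2 CPM (76.1 to 80.3) in excitatory neurons. In inhibitory barcodes 7 UMIs were found, which is 3.49 CPM (1.40 to 7.19). Within excitatory gates the order ran from Rorb-positive upper-layer (112 CPM) over layer VIb (104 CPM), newborn (99.5 CPM), Rorb-negative upper-layer (82.4 CPM), layer VI (78.6 CPM) and barcodes of no layer gate (76.7 CPM) to layer V at 49.8 CPM (45.6 to 54.3). Each of these intervals overlapped that of its neighbour down to the barcodes of no layer gate, which did not overlap layer V. The balance of the pair thus turned over: Emx2 had 2.03 UMIs (1.52 to 2.72) per Emx1 UMI in radial glia or astrocytes, 3.31 (2.17 to 5.20) in oligodendrocyte precursors, 0.413 (0.307 to 0.550) in newborn excitatory and 0.0858 (0.0777 to 0.0945) in excitatory barcodes.

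Zbtb20, the zinc finger repressor, covered a wide range of levels. It was at 2156 CPM (2021 to 2298) in dividing progenitors and 2134 CPM (2069 to 2201) in radial glia or astrocytes, followed by newborn excitatory barcodes (1908 CPM, 1843 to 1975) and oligodendrocyte precursors (1016 CPM, 972 to 1062). The first pair overlapped and the other steps did not. Excitatory neurons held 215 CPM (212 to 219), and the ratio of progenitors and glia to them was 7.56 (7.34 to 7.78). Under alternative processing this ratio ran from 5.09 to 7.63. At 2000 UMIs, Zbtb20 was detected in 95.6% (92.3 to 97.8) of the radial glia or astrocyte gate and 28.6% (27.5 to 29.8) of excitatory barcodes, and in 92.9% and 51.1% before thinning, which left out the shallowest barcodes (31 of 282 and 122 of 6284).

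Bhlhe22, a basic helix-loop-helix factor of postmitotic neurons, was lowest in these gates relative to neurons, with 11.1 CPM (6.86 to 17.0) in radial glia or astrocytes and 271 CPM (267 to 275) in excitatory barcodes. The ratio of progenitors and glia to excitatory neurons was 0.0455 (0.0340 to 0.0595). Bhlhe22 was at 11.9 CPM (5.70 to 21.9) in the Lhx6/Sst gate, and the level in radial glia or astrocytes lay within that interval and was not told from background. Newborn excitatory barcodes lay between them at 140 CPM (123 to 159). Lmo3 and Lmo4, LIM-only proteins that join transcription factor complexes, had ratios of 0.303 (0.259 to 0.352) and 0.440 (0.411 to 0.470). The Lmo4 ratio was 0.565 with thinned barcodes and 0.525 with barcodes weighted equally, so it was not at least 2-fold under these. Lmo4 was higher in oligodendrocyte precursors (271 CPM, 249 to 295) than in radial glia or astrocytes (155 CPM, 138 to 173).

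Nr2f1, an orphan nuclear receptor, was present on both sides, with 506 CPM (485 to 528) in progenitors and glia and 461 CPM (456 to 466) in excitatory neurons, a ratio of 1.10 (1.05 to 1.15). Within the first set, however, levels differed: 909 CPM (822 to 1003) in dividing progenitors, 584 CPM (550 to 620) in radial glia or astrocytes and 342 CPM (316 to 369) in oligodendrocyte precursors. These counting intervals did not overlap, but they leave out the spread between barcodes. A830082K12Rik, listed with 3658 UMIs against 39929 for Nr2f1, overlaps its exons on the opposite strand. Nr2f2 was at 4.19 CPM (2.48 to 6.62) and 3.05 CPM (2.65 to 3.50) in these sets and did not pass the filter.

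**Figure D2:**
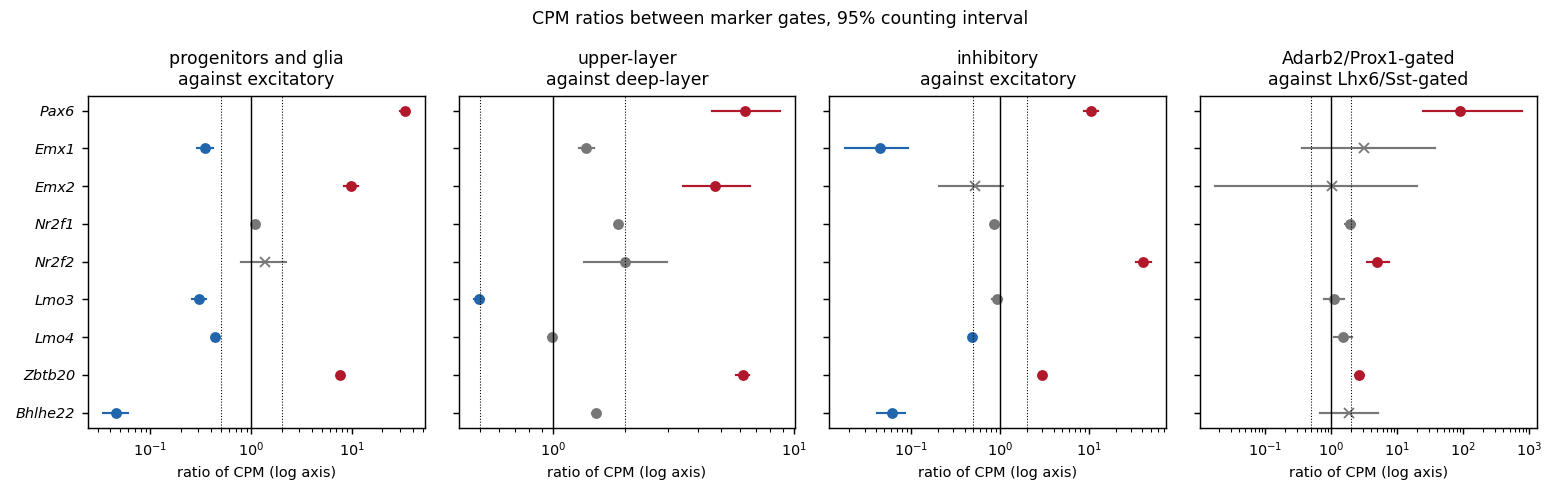
Ratio of CPM between gates for each member in the 4 comparisons; the horizontal axis is a log axis, lines are 95% counting intervals, dotted lines mark 2-fold either way, and crosses are members that did not pass the filter on low values. Zbtb20 and Pax6 lie to the right of the 2-fold line in each panel, while Emx1 and Bhlhe22 lie far to the left for inhibitory against excitatory barcodes.

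Other genes of cortical patterning, a list of 28 of which 23 were not gate markers here, were read in the same comparison. Of the 20 with enough UMIs, 8 were at least 2-fold higher in progenitors and glia, 7 at least 2-fold lower and 5 neither, with a median ratio of 0.749. The higher ones included Nr2e1 (Tlx), which keeps neural stem cells dividing, at a ratio of 233 (155.6 to 365), Gli3, a mediator of Hedgehog signalling, at 74.6 (62.2 to 90.1), Fgfr3, a receptor of patterning FGFs, at 22.5 (19.3 to 26.3), and Dmrta2, a factor of the medial cortex, at 8.87 (7.76 to 10.1). The lower ones included Efna5, an axon guidance ligand, at 0.0445, Prdm8, a partner of BHLHB5, at 0.0858, and Tbr1, a check marker of the excitatory gate, at 0.104. Lhx2, Lmo1 and Ldb1, the last of which binds LMO proteins, were among those that differed by less than 2-fold.

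The second comparison set the upper-layer gate beside the deep-layer gates. Pax6, Emx2 and Zbtb20 were at least 2-fold higher in the upper layers and Lmo3 at least 2-fold lower, and the other 5 members were neither. Among 14364 genes compared, 4.49% were at least 2-fold higher and 7.92% at least 2-fold lower, and the median ratio was 1.86 over the members and 0.991 over all genes. Of the 19 other patterning genes with enough UMIs, 6 were higher (Lhx2, Gli3, Dmrta2, Lmo1, Lmo2 and Prdm8) and 2 lower (Epha7 and Etv5), and the median was 1.02.

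Zbtb20 was at 440 CPM (430 to 451) in Rorb-negative and 128 CPM (118 to 138) in Rorb-positive upper-layer barcodes, against 56.6 CPM (52.1 to 61.3) in layer V, 63.3 CPM (58.4 to 68.6) in layer VI and 30.4 CPM (19.3 to 45.6) in layer VIb. The upper to deep ratio was 6.13 (5.77 to 6.51), and it ran from 5.94 to 9.13 under alternative processing. The Rorb-positive to Rorb-negative ratio was 0.290 (0.268 to 0.314). Layers V and VI were not told apart. Pax6 and Emx2 were also highest in the Rorb-negative gate, at far lower levels. Pax6 was at 17.1 CPM (15.1 to 19.2) there, 3.67 CPM (2.24 to 5.67) in Rorb-positive and 2.18 CPM (1.59 to 2.92) in deep-layer barcodes. Emx2 was at 13.9 CPM (12.1 to 15.8), 3.49 CPM (2.10 to 5.45) and 2.33 CPM (1.71 to 3.08). For both genes the last pair of intervals overlapped. The upper to deep ratios were 6.27 (4.59 to 8.76) and 4.73 (3.47 to 6.57), with the deep-layer levels of both genes not told from background, so their place in the count above is a description only. Markers of newborn excitatory neurons (Eomes, Neurog2, Sstr2, Neurod1, Mfap4, Sema3c, Rhbdl3) moved with these members: they summed to 192 CPM in the Rorb-negative, 54.2 CPM in the Rorb-positive and 42.7 CPM in the deep-layer set. Their part in the layer values was not tested.

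Nr2f1 was also higher in the upper layers, with 581 CPM (570 to 593) in Rorb-negative and 426 CPM (409 to 444) in Rorb-positive barcodes, and 306 CPM (296 to 317), 268 CPM (257 to 278) and 280 CPM (244 to 320) in layers V, VI and VIb. Its upper to deep ratio of 1.86 (1.81 to 1.92) stayed below 2-fold, but it was 2.13 with thinned barcodes and 2.04 with equal weights. Nr2f2 was at 4.23 CPM or less in each layer gate. Its ratio of 1.99 (1.35 to 2.99) was 2.12 with 1 more marker UMI asked of each gate and 1.32 with thinned barcodes, and levels this low were not told from free RNA.

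Lmo3 and Lmo4 split the layers differently. Lmo3 was highest in layer VIb at 382 CPM (339 to 428), followed by layer V at 205 CPM (196 to 214), Rorb-positive upper-layer barcodes at 195 CPM (184 to 207) and layer VI at 181 CPM (173 to 190). It was lowest in Rorb-negative upper-layer barcodes at 69.0 CPM (65.0 to 73.2). Layer V overlapped the Rorb-positive gate, which overlapped layer VI, and the steps above and below these did not overlap. The upper to deep ratio of 0.496 (0.472 to 0.521) lay at the 2-fold line and was 0.501 without the 5% of barcodes with the most UMIs.

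Lmo4 was at 328 CPM (321 to 336) in the upper and 332 CPM (324 to 340) in the deep set, a ratio of 0.989 (0.958 to 1.02), but the gates within each set differed. Layer V held 516 CPM (502 to 530) and layer VI 149 CPM (141 to 157), a ratio of 3.47 (3.27 to 3.68). Rorb-negative and Rorb-positive upper-layer barcodes held 366 CPM (357 to 376) and 221 CPM (209 to 234). The highest excitatory level was in the 2050 barcodes of no layer gate, at 797 CPM (785 to 810), which was 2.43-fold (2.37 to 2.49) that of the upper-layer gate. These barcodes carried upper-layer markers at a sum of 841 CPM, layer V markers at 408 CPM and layer VI markers at 334 CPM. Per Lmo4 UMI, 0.136 (0.130 to 0.142) Lmo3 UMIs were counted in barcodes of no layer gate, 0.189 in Rorb-negative upper-layer, 0.397 in layer V, 0.884 in Rorb-positive upper-layer, 1.22 in layer VI and 2.68 (2.14 to 3.37) in layer VIb barcodes, and none of these intervals overlapped its neighbour.

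Bhlhe22 was at 378 CPM (366 to 390) in layer V, 368 CPM (352 to 384) in Rorb-positive and 331 CPM (322 to 340) in Rorb-negative upper-layer barcodes. It was much lower in layer VI at 68.7 CPM (63.6 to 74.2), 5.50-fold (5.06 to 5.98) below layer V. Layer V overlapped the Rorb-positive gate. The upper to deep ratio of 1.52 (1.46 to 1.57) changed with the processing: it was 2.27 with thinned barcodes, 2.20 with equal weights and 2.40 without the 5% of barcodes with the most UMIs. The median depth was 16822 UMIs in layer V and 9802.5 in layer VI, and the part of depth in this was not tested.

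**Figure D3:**
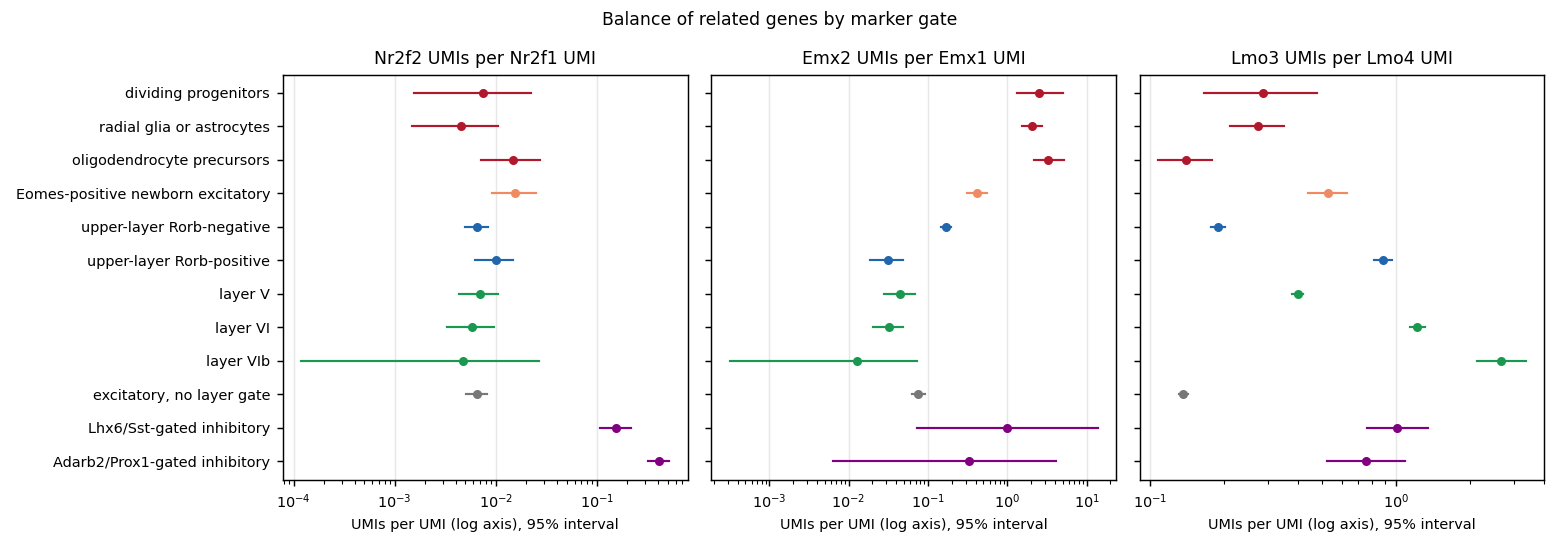
UMIs of Nr2f2 per Nr2f1 UMI, Emx2 per Emx1 UMI and Lmo3 per Lmo4 UMI in 12 gates, on log axes with 95% intervals. Emx2 leads Emx1 in the red progenitor and glial gates (2.03 to 3.31) and Lmo3 leads Lmo4 in layers VI and VIb (1.22 and 2.68), while Nr2f2 per Nr2f1 is above 0.1 only in the purple inhibitory gates among those drawn.

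Promoter sequences were read for pairs whose levels moved together or apart: Pax6 with Zbtb20, both highest in progenitors, and Lmo3 with Lmo4, whose balance changed with layer. A window was given for 8 of the 9 members. Those of Emx1, Emx2, Nr2f1 and Nr2f2 overlap annotated exons and are not shown. Shown are the 250 bases before the first listed start of each gene in RefSeq (GRCm38.p6), written 5′ to 3′ on the strand of the gene. Pax6 and Lmo4 had further windows, whose matches are not given. Among them, an Lmo4 window also overlapped no annotated exon. Capitals mark CANNTG, the E-box letters that helix-loop-helix factors such as BHLHB5 can bind, which read the same way on both strands and occur in 66.2% of the 32851 windows of this length. The genes can have further starts, and UMI counts do not show which one was used.
Pax6, chr2:105668646-105668895, plus strand: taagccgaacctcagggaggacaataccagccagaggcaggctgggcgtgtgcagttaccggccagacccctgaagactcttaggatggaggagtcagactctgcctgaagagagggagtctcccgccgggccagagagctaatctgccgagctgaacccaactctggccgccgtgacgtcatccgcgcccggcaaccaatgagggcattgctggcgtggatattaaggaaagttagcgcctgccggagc
Zbtb20, chr16:43247034-43247283, plus strand: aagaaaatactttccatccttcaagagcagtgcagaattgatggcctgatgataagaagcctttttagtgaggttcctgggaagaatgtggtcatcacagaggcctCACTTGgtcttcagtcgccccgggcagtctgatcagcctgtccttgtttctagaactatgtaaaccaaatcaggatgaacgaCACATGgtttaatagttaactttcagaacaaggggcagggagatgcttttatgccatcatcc
Lmo3, chr6:138581969-138582218, minus strand: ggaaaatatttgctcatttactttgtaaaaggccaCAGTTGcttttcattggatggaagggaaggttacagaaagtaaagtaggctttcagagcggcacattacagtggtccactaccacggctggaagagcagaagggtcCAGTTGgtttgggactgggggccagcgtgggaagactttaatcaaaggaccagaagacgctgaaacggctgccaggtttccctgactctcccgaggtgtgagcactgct
Lmo4, chr3:144205256-144205505, minus strand: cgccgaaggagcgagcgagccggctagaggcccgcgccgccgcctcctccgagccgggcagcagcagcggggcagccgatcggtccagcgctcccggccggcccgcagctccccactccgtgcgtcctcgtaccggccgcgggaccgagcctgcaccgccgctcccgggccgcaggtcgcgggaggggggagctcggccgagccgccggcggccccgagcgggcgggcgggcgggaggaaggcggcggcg
CANNTG was found at 2 places in the Zbtb20 window and 2 in the Lmo3 window, and at 0 in the Pax6 and Lmo4 windows shown. These are matches of letters, and no binding was measured.

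The third comparison set inhibitory barcodes beside excitatory ones. Pax6, Nr2f2 and Zbtb20 were at least 2-fold higher in the inhibitory gate, and Emx1, Lmo4 and Bhlhe22 at least 2-fold lower. Among 9158 genes compared, 5.61% were at least 2-fold higher and 5.3% at least 2-fold lower, against 3 and 3 of the 8 members compared, and the median ratio was 0.892 over members and 1.04 over all genes. Of 15 other patterning genes compared, 3 were higher (Pbx3, Lmo2 and Etv5) and 5 lower (among them Lhx2, Id2 and the excitatory check marker Tbr1), with a median of 0.657.

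Pax6 was at 85.3 CPM (73.0 to 99.1) in inhibitory barcodes, a ratio of 10.7 (8.92 to 12.7). Zbtb20 was at 631 CPM (597 to 667), a ratio of 2.94 (2.77 to 3.11). Both were spread unevenly over the inhibitory gates, as the fourth comparison gives.

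Nr2f2 had a ratio of 41.0 (34.0 to 49.6), from 125 CPM (110 to 142) in inhibitory and 3.05 CPM (2.65 to 3.50) in excitatory barcodes. It passed the filter through its inhibitory level, under a rule adopted after an earlier one had left it out, so its place in the count above is a description only. At 2000 UMIs, a UMI was found in 15.5% (11.8 to 19.7) and 0.714% (0.519 to 0.957), and unthinned in 23.5% and 2.51% at median depths of 4887 and 9624.5 UMIs. Nr2f1 was at 397 CPM (369 to 425) in inhibitory barcodes, a ratio of 0.861 (0.801 to 0.924) to excitatory ones. The balance of these related receptors thus differed: 0.316 Nr2f2 UMIs (0.273 to 0.364) were counted per Nr2f1 UMI in the inhibitory and 0.00663 (0.00574 to 0.00761) in the excitatory gate.

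Nr2f2 was also found in small gates outside these comparisons. It was at 797 CPM (685 to 922) in the 16 Cajal-Retzius-gated barcodes, a gate for neurons of the marginal zone, and 578 CPM (455 to 725) in 22 mural-gated barcodes (Rgs5, Pdgfrb, Kcnj8), where Vtn, a check marker, was at 2306 CPM. In 19 endothelial-gated barcodes it was at 83.5 CPM (51.0 to 129). In these gates it outnumbered Nr2f1, with 15.1 (8.43 to 29.7), 4.69 (2.71 to 8.62) and 5.0 (1.67 to 20.1) UMIs per Nr2f1 UMI. Levels in the Cajal-Retzius and mural gates overlapped.

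Emx1 and Bhlhe22 marked the excitatory side, with inhibitory to excitatory ratios of 0.0447 (0.0179 to 0.0921) and 0.0607 (0.0417 to 0.0852). For Emx1 this rested on 7 UMIs in 383 inhibitory barcodes, and the ratio was 0.018 with thinned barcodes and 0.110 with equal weights. Emx2, with 7 UMIs in the inhibitory gate as well (3.49 CPM against 6.71 CPM), did not pass the filter. Lmo4 lay at the 2-fold line with a ratio of 0.490 (0.447 to 0.537), and it was 0.501 without the 5% of barcodes with the most UMIs. Lmo3 was at 123 CPM (108 to 140) and 134 CPM (131 to 136), a ratio of 0.922 (0.810 to 1.05). A small striatal-gated inhibitory set of 12 barcodes (markers including Ppp1r1b, Ebf1, Isl1 and Rarb) held Lmo4 at 929 CPM (761.9 to 1121), which overlapped the level in excitatory barcodes of no layer gate.

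The fourth comparison divided the inhibitory barcodes. Pax6, Nr2f2 and Zbtb20 were at least 2-fold higher in the Adarb2/Prox1 gate than in the Lhx6/Sst gate, and 0 of the 6 members compared were 2-fold lower. Among 3853 genes, 6.2% were at least 2-fold higher and 7.66% at least 2-fold lower. The median ratio was 2.28 over members and 0.995 over all genes.

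Pax6 was at 215 CPM (172 to 265) in the Adarb2/Prox1 gate, where 38.9% of barcodes held a UMI, and at 2.38 CPM in the Lhx6/Sst gate. The latter is the level taken as background above, and Pax6 passed the filter through the Adarb2/Prox1 gate, so its place in the count is a description only. The ratio of 90.3 (24.3 to 757) comes from 87 and 2 UMIs, and it was 138 with equal weights. With thinned barcodes the Lhx6/Sst gate held 0 Pax6 UMIs, and Pax6 was at least 18.9-fold higher in the Adarb2/Prox1 gate, from a floor of 3 counts over the Lhx6/Sst gate. Nr2f2 was at 237 CPM (192 to 289) and 47.6 CPM (34.0 to 64.8), a ratio of 4.98 (3.41 to 7.40), which was 7.89 with 1 more marker UMI asked of each gate and 3.26 with thinned barcodes. Zbtb20 was at 948 CPM (855 to 1047) and 357 CPM (317 to 399), a ratio of 2.66 (2.28 to 3.10) that dropped below 2-fold with thinned barcodes (1.78) and equal weights (1.90). Nr2f1 was at 582 CPM (511 to 662) and 307 CPM (270 to 347), a ratio of 1.90 (1.58 to 2.27), or 2.03 with thinned barcodes and 2.44 with equal weights. Lmo3, at 136 and 122 CPM, differed by less than its counting error. Lmo4 was at 180 CPM (141 to 226) and 121 CPM (98.9 to 147), a ratio of 1.49 (1.08 to 2.03). Emx1, Emx2 and Bhlhe22 had 10 UMIs or fewer in each gate and did not pass the filter.

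Of the 5 olfactory bulb markers named above, 4 were higher in the Adarb2/Prox1 gate, as these members were, and Th was at 0 and 1.19 CPM. Pbx3, which is on the bulb list and the patterning list, had a ratio of 20.5 (9.91 to 49.1). Of 5 other patterning genes compared, 2 were higher in the Adarb2/Prox1 gate, Pbx3 among them, and 0 lower. The 141 inhibitory barcodes in neither gate nor the striatal-gated set held Pax6 at 128 CPM, Nr2f2 at 179 CPM and Zbtb20 at 758 CPM, with bulb markers at 1381 CPM and dividing markers at 229 CPM. The part of olfactory bulb cells in these levels was not tested.

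Members were then compared with each other across single excitatory barcodes. Each barcode was thinned to 2000 UMIs, which left out 122 of 6284, and Pearson's r of log2(1 + UMIs) was taken over 6162 barcodes. Barcodes are not replicates and share 1 library and its free RNA, so r is a description. Of 36 pairs, 5 reached 0.1 and 3 fell to -0.1 or below. The highest were Pax6 with Zbtb20 (0.16), Emx2 with Zbtb20 (0.13), Nr2f1 with Lmo4 (0.12), Zbtb20 with Bhlhe22 (0.12) and Nr2f1 with Zbtb20 (0.11). The lowest were Lmo3 with Zbtb20 (-0.11), with Bhlhe22 (-0.11) and with Lmo4 (-0.10). Counts were sparse, with a mean of 0.965 UMIs per barcode for Nr2f1, 0.848 for Lmo4 and 0.0216 for Pax6, and weak values of r are no finding. Where these pairs were ranked among other genes, the ranks are given from the side of each member. The pairs were picked for their r. The other genes, found in at least 5% of thinned excitatory barcodes, were not matched to the members in detection. Sparse counts hold r near 0, so the ranks are a description only. For Lmo3, 95% of 5904 genes had an r between -0.049 and 0.055, and Zbtb20, Bhlhe22 and Lmo4 ranked 10, 12 and 13 from the lowest. For Nr2f1, Lmo4 ranked 11 and Zbtb20 17 from the highest. From the side of Zbtb20, whose range over 95% of genes was -0.123 to 0.117, Lmo3 ranked 180 from the lowest and Nr2f1 174 from the highest, both within that range. On that side Bhlhe22 (0.119) ranked 144 from the highest, just above the range. For Bhlhe22, Zbtb20 ranked 15 from the highest and Lmo3 36 from the lowest. For Lmo4, Nr2f1 ranked 23 from the highest and Lmo3 24 from the lowest.

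**Figure D4:**
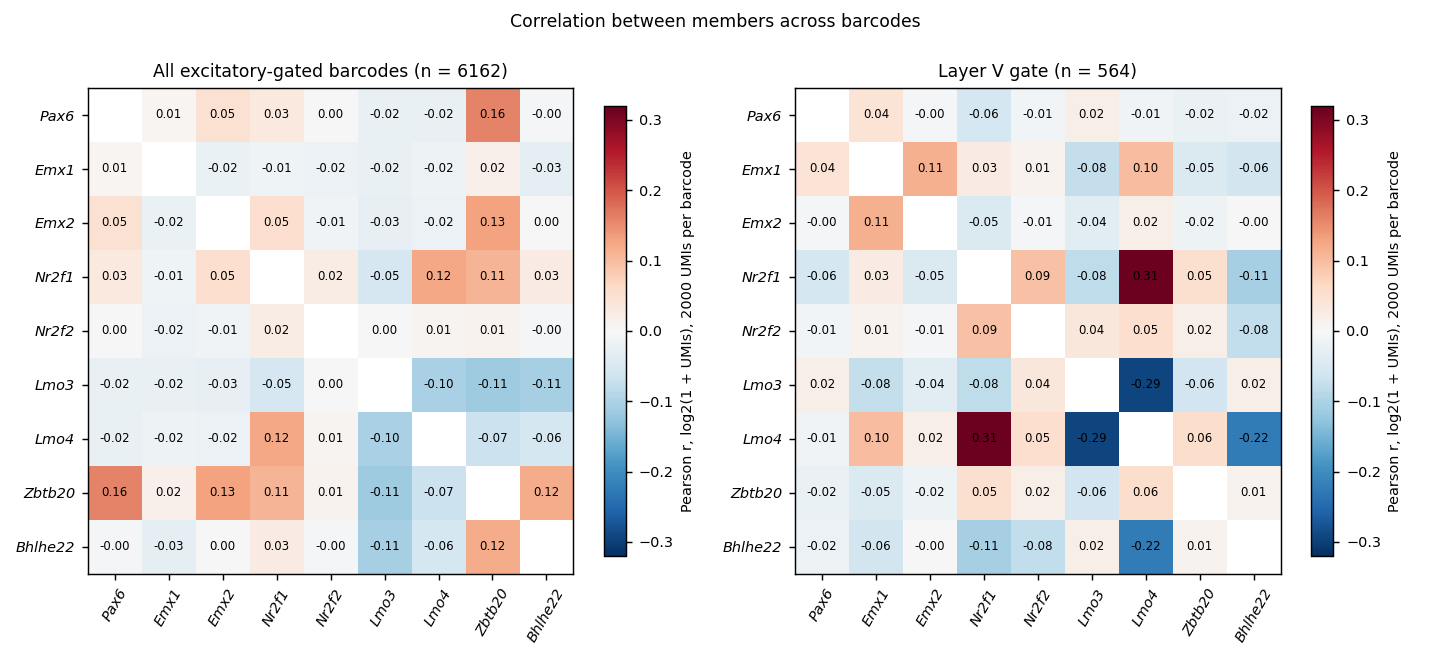
Pearson r between members over barcodes thinned to 2000 UMIs, in all 6162 excitatory barcodes and in the 564 barcodes of layer V; red is positive and blue negative. In layer V the block of Lmo4 with Nr2f1 (0.31), Lmo3 (-0.29) and Bhlhe22 (-0.22) stands out. Zbtb20 with Bhlhe22, Nr2f1 and Lmo3 is at 0.12, 0.11 and -0.11 in the left panel. In layer V these pairs are at 0.01, 0.05 and -0.06.

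Layer gates changed these values. Within layer V, r was 0.31 for Nr2f1 with Lmo4, -0.29 for Lmo3 with Lmo4 and -0.22 for Lmo4 with Bhlhe22. In levels, layer V barcodes with no Nr2f1 UMI held Lmo4 at 329 CPM (287 to 376), and those with at least 1 held it at 831 CPM (750.3 to 917). Layer V barcodes without an Lmo3 UMI held Lmo4 at 701 CPM (644 to 761.6), and those with one at 158 CPM (118 to 206). Bhlhe22 was at 392 CPM (345 to 442) in layer V barcodes without and 203 CPM (164 to 248) in those with an Lmo4 UMI.

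Lmo4 was also read against other genes in layer V. Its r there was 0.43 with Foxp1 and 0.37 with Runx1t1, and it was -0.48 with Bcl11b (CTIP2, a factor of subcerebral projection neurons), -0.27 with Sox5 and -0.24 with Pcp4. Bcl11b is a marker of the layer V gate, which requires a minimum of its markers, so its r there is bounded by the gate. The other gate markers ranged from -0.25 (Crym) over -0.17 (Fezf2) to 0.06 (Ldb2). Nr2f1 had the same sign as Lmo4 with Bcl11b (-0.24), whereas Lmo3 (0.21) and Bhlhe22 (0.20) were positive with Bcl11b.

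Among Rorb-positive upper-layer barcodes (397), r was -0.20 for Lmo3 with Bhlhe22, -0.18 for Lmo3 with Lmo4, 0.13 for Lmo4 with Zbtb20 and 0.13 for Nr2f1 with Lmo3. Over all excitatory barcodes r was -0.07 and -0.05 for the last pairs. Within this gate r was also computed with some named genes, and it was 0.31 for Lmo4 with Nefl, -0.18 for Lmo4 with Ptn and -0.18 for Lmo3 with Inhba. The member pairs were not ranked among other genes there, and nothing is read from these differences. Lmo4 was at 270 CPM (229 to 316) in those without and 89.3 CPM (54.5 to 138) in those with an Lmo3 UMI. In layer VI (919), Lmo3 and Lmo4 were unrelated at -0.003, with Lmo4 at 110 CPM (93.0 to 129) and 129 CPM (99.7 to 164) without and with an Lmo3 UMI. In Rorb-negative upper-layer barcodes the values for this pair were 332 CPM (313 to 352) and 323 CPM (265 to 390).

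Zbtb20 had the largest values of r with other genes among the 6 members ranked. In excitatory barcodes its r was 0.528 with Igfbpl1, 0.511 with Meis2 and 0.454 with Sox11, the last a factor of immature neurons, and -0.527 with Mef2c, a factor of maturing neurons, -0.479 with Stmn2 and -0.392 with Meg3. Barcodes with a Zbtb20 UMI held Igfbpl1 at 2048 CPM against 585 CPM in those without, and Mef2c at 2003 CPM against 4223 CPM. These genes were picked over excitatory barcodes that include the upper-layer gate, so its values (0.50 with Igfbpl1 and -0.59 with Mef2c) are no separate support. In layer V, r was 0.17 with Igfbpl1 and -0.00235 with Mef2c, and in layer VI it was 0.13 and -0.10. Olfactory bulb markers, of which Meis2 is one, summed to 1203 CPM with and 346 CPM without a Zbtb20 UMI among excitatory barcodes, and newborn markers to 357 and 51.9 CPM. Meis2 made up 395 of the 446 CPM of the bulb list in the excitatory gate, so the bulb sum largely repeats its r with Zbtb20.

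Excitatory barcodes with a Pax6 UMI (116) differed from the rest in the same genes. They held Zbtb20 at 1030 CPM (904 to 1169) against 293 CPM (284 to 303) without, Igfbpl1 at 2741 CPM against 970 CPM and Mef2c at 1134 CPM against 3635 CPM. Newborn markers summed to 591 CPM (496 to 698) against 131 CPM, and markers of radial glia to 216 CPM (160.0 to 284) against 88.0 CPM. Inhibitory markers summed to 56.0 CPM (29.8 to 95.8) against 18.6 CPM. In the 113 barcodes with an Emx2 UMI, Zbtb20 was at 916 CPM (795 to 1050), Igfbpl1 at 2004 CPM and newborn markers at 394 CPM. Of the 101 barcodes with 1 Pax6 UMI, 68.3% lay in the upper-layer gate and 2.97% in layer V, against 43.3% and 9.28% of barcodes with 0. The part of free RNA, doublets and newborn neurons in these values was not tested.

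**Figure D5:**
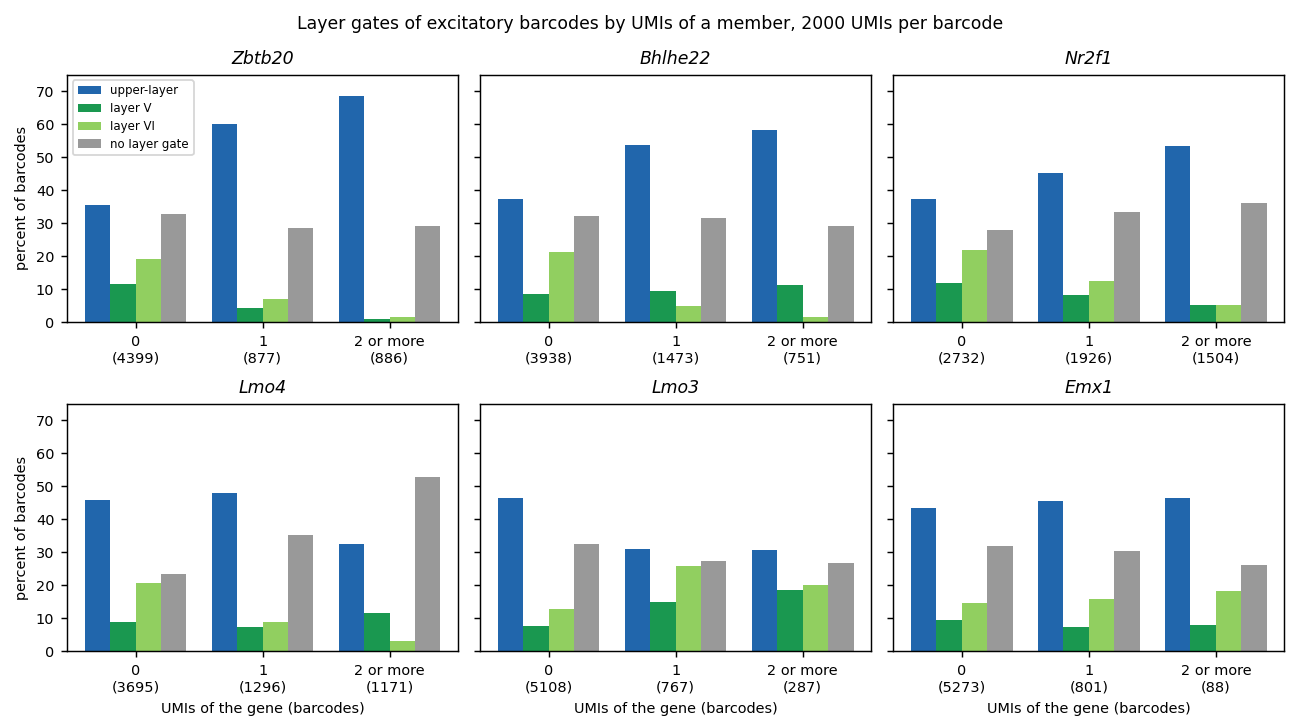
Share of excitatory barcodes in each layer gate (vertical axis, percent) for barcodes with 0, 1 or at least 2 UMIs of a member after thinning to 2000 UMIs, with the number of barcodes in brackets. The upper-layer share rises with Zbtb20, Bhlhe22 and Nr2f1 UMIs, barcodes of no layer gate reach 52.7% with at least 2 Lmo4 UMIs, and the bars for Emx1 change little.

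Read the other way, member UMIs sorted barcodes into layers to different degrees. With 0 and at least 2 Zbtb20 UMIs, 35.5% and 68.4% of excitatory barcodes were in the upper-layer gate, and 19.2% and 1.47% in layer VI. For 0, 1 and at least 2 Bhlhe22 UMIs, the layer VI share was 21.2%, 4.96% and 1.46%. For the same steps of Lmo4, the share in no layer gate was 23.6%, 35.3% and 52.7%, and for those of Emx1 the upper-layer share was 43.4%, 45.7% and 46.6%.

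The remaining members had weaker partners. For Lmo4 the 3 genes with the highest r were Nefl (0.246), a neurofilament gene, Runx1t1 (0.234) and Foxp1 (0.232), and the lowest were Nfib (-0.210), Tmsb4x (-0.210) and Bcl11b (-0.189). For Bhlhe22 they were Sox4 (0.201), Ptn (0.190) and Ttc28 (0.181) against Meg3 (-0.190), Sox5 (-0.186) and Hs3st4 (-0.185). Nr2f1 had Ttc28 (0.162), Sox11 (0.159) and Gria2 (0.155) at one end and the deep-layer gate markers Hs3st4 (-0.171), Bcl11b (-0.161) and Tle4 (-0.159) at the other. Lmo3 had Gap43 (0.162), Meg3 (0.160) and Cxxc4 (0.155) against Ttc28 (-0.182), Eif1b (-0.181) and Meis2 (-0.145). For Emx1 no r exceeded 0.0501 (Inhba) or fell below -0.0558 (Runx1t1). Pax6, Emx2 and Nr2f2 were found in fewer than 5% of thinned excitatory barcodes and were not ranked.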

How the data were processed

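The authors deposited raw UMI counts per gene and barcode for the WT library, with no normalization, and a table of counts and genes per barcode. The submitters' processing notes name STAR, Cell Ranger (version 2), Seurat and the mm9 build; the annotation, strand setting and cell calling are not given in the sources used here, and gene coordinates are from GRCm38 by symbol. Barcodes under 200 genes (4) and genes in fewer than 3 barcodes were left out. Gates asked for 3 to 10 UMIs of at least 2 marker genes (10 for radial glia or astrocytes), with minimums set on gate sizes, overlaps and check markers, not on member levels. A barcode meeting excluding gates was left out (119 met both the excitatory and inhibitory gates), and no doublet caller was run. With 1 UMI more asked, the excitatory gate held 6084 barcodes instead of 6284 and the Adarb2/Prox1 gate 59 instead of 95. Levels (CPM) are a class's summed UMIs of a gene over its total without mitochondrial genes. A gene was compared when at least 20 UMIs were expected in the smaller class from the mean of both levels; this filter was chosen after values had been seen, since one on pooled UMIs lost Nr2f2 in inhibitory against excitatory barcodes. A ratio of at least 2 either way was counted. Thinning to 2000 UMIs left out 2612 barcodes. Named genes were the members, the patterning list, the markers, and the 3 genes with the highest and lowest r to each member found in 5% of thinned excitatory barcodes. The members and lists were chosen with earlier results of these data known. Python 3.11.15, numpy 2.4.6, scipy 1.17.1 and pandas 2.3.3 were used, and the scripts were tested on simulated data. PCR copies are removed by UMIs, and the precision is that of counting. Knock-in cortex was not analysed here. Some markers and listed genes are not reported here by name.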

Additional observations from a re-analysis of the deposited data

How the results depend on the processing

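No paired analysis was possible because no result comes from a test between samples. Under 6 alternatives each, 170 of 216 member ratios stayed within the counting interval and 46 left it. No ratio of at least 2-fold either way changed direction, while some ratios near 1 crossed it: Lmo4 in upper against deep layers (0.989) was 1.14 when thinned and 1.15 with equal weights, and Lmo3 in inhibitory against excitatory barcodes (0.922) was 1.14 with equal weights. The number of members at least 2-fold higher in upper layers (3) was 5 when thinned to 2000 UMIs and 5 with equal weights, and the number at least 2-fold lower (1) was 0 without the 5% of barcodes with the most UMIs, where Lmo3 was at 0.501. Pairs of members with r of at least 0.1 (5) numbered 2 in the upper-layer gate, 1 in the deep-layer gates, 2 in the Rorb-negative, Rorb-positive, layer V and layer VI gates and 3 in no layer gate. Pairs at -0.1 or below (3) numbered 1 in the upper-layer gate, 1 in the deep-layer gates and 0 in layer VI. They numbered 2 in the Rorb-negative and Rorb-positive gates and 3 in layer V and in no layer gate. Among the 8 pairs at least 0.1 in size, sign differed for Pax6 with Zbtb20 (-0.0231 Rorb-positive, -0.0214 layer V), Emx2 with Zbtb20 (-0.000339, -0.0175; Pax6 was in 1 and 3 and Emx2 in 4 and 2 barcodes of these gates, too few to show a sign), Nr2f1 with Lmo4 (-0.0232 Rorb-positive), Nr2f1 with Zbtb20 (-0.0222 Rorb-positive), Lmo3 with Zbtb20 (0.0279 layer VI) and Lmo3 with Bhlhe22 (0.00998 deep-layer, 0.0196 layer V), while smaller pairs, from which nothing is read, also crossed 0, among them Lmo4 with Zbtb20 (-0.07 to 0.13) and Nr2f1 with Lmo3 (-0.05 to 0.13) in Rorb-positive barcodes and Nr2f1 with Bhlhe22 (0.03 to -0.11) in layer V, and 275 of 432 values of r stayed within the interval of Fisher's z for the number of barcodes. The cause was not tested. The filter used, its comparison with one on pooled UMIs, and the values within single layer gates were chosen after seeing the data. Depth limits Pax6, Emx2 and Nr2f2 in neurons, and the gates of 38 barcodes or fewer.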
